A study of Mus musculus with 9 samples.

Results

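The kinesins are a superfamily of microtubule motor genes, and those with Kif symbols were followed here in a spermatogonial stem cell (SSC) line as it entered differentiation. Members were chosen by symbol alone, as every gene named Kif or Kifc followed by a number and at most a letter from a to c, which gave 42 of the 46078 genes counted. From textbook roles the members were sorted into 14 mitotic kinesins, 15 transport kinesins, 6 kinesins of the cilium and 7 with other roles. Earlier results of these data were known when this was done.

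Kinesins turn the energy of ATP into movement along microtubules, or use it to take microtubule ends apart. Mitotic kinesins push spindle poles apart, carry and align chromosomes, attach chromosomes to microtubules and close the division at cytokinesis, and many are made mainly in G2 and M phase. Transport kinesins carry vesicles, organelles, RNA and ciliary cargo, usually as heavy chains that pair with light chains or adaptors. Spermatogonia divide with incomplete cytokinesis, so that daughter cells stay joined by bridges in which the cytokinesis kinesin Kif23 remains.

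RNA was sequenced from EGFP-SSCs, 1 wild-type cell line that carries green fluorescent protein, with 3 libraries labelled as biological replicates at each of 3 time points. The 0 h cells were in normal culture, kept on mitomycin C-treated mouse embryonic fibroblasts in medium with glial cell line-derived neurotrophic factor, basic fibroblast growth factor and epidermal growth factor. The 24 h and 48 h cells had been mixed 1:1 with somatic cells from testes of busulfan-exposed pups aged 3 to 7 days post partum (busulfan is an alkylating agent that depletes germ cells), in medium with BMP-4/7, retinoic acid, activin A, testosterone, FSH and bovine pituitary extract, and EGFP-positive cells were then sorted by flow cytometry. Feeder cells, medium and co-culture changed together between 0 h and the later times and cannot be told apart. The labels name sorting for the later times, and the sources used here leave unclear whether the 0 h libraries came from sorted cells. Nothing in the sources used here says whether the replicates were separate cultures, so p-values measure the spread between these libraries, which may be technical. In these bulk samples, fewer cells of a type and less RNA per cell cannot be told apart.

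The libraries held 16825251 to 22201892 counts, of which kinesins took 0.219% to 0.298%. Levels are given in CPM, counts scaled by library size and TMM factor. The germ cell genes Ddx4 and Dazl were present at all 3 times, with means of 356, 362 and 380 CPM for Ddx4. The 10 germ cell markers summed to 2289 to 3265 CPM at 0 h, 3033 to 3188 CPM at 24 h and 2911 to 3090 CPM at 48 h. Of them 2 were called higher and 1 lower at 24 h versus 0 h, 1 and 3 at 48 h versus 0 h, and 0 and 3 at 48 h versus 24 h. Of all genes tested, 11.4% were called higher and 14.2% lower, 13.0% and 18.5%, and 8.61% and 12.7%. Etv5, a transcription factor of undifferentiated spermatogonia, averaged 523, 11.4 and 7.74 CPM at 0, 24 and 48 h, while Kit, the receptor of differentiating spermatogonia, averaged 8.45, 571 and 328 CPM. Markers of other cells moved with time too. The summed level of 10 fibroblast markers was 371 to 479 CPM at 0 h, 2453 to 2793 CPM at 24 h and 3278 to 3536 CPM at 48 h. That of 7 smooth muscle markers was 37.4 to 41.6, 198 to 252 and 332 to 379 CPM, and that of 10 Sertoli cell markers was 20.3 to 24.2, 66.6 to 102 and 105 to 119 CPM. The 5 Leydig cell markers summed to 4.43 to 6.77, 25.2 to 38.5 and 25.6 to 31.9 CPM. Fshr of the Sertoli list and Insl3 of the Leydig list were at 0 in all 3 libraries at 0 h and at no more than 0.1 and 0.32 CPM later, and Hsd3b1 at 0 and then 2.56 to 5.65 CPM. Sertoli markers tested at 24 h versus 0 h had log2 fold changes of -0.80 to 5.46, and Leydig markers 0.67 to 9.37. Of the markers tested, 8 of 10 fibroblast, 7 of 8 Sertoli, 6 of 7 muscle and 2 of 3 Leydig markers were called higher at 24 h than at 0 h. The other Sertoli marker tested was called lower. Beside these stand the 11.4% higher and 14.2% lower of all genes. The 5 endothelial and 5 macrophage markers summed to at most 47.8 and 17.1 CPM at 0 h and to less at 24 and 48 h. The part of these other cells in the kinesin values below was not tested.

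The 0 h libraries stood apart from each other. Among genes with a GC content under 40%, the median log2 deviation from the 0 h mean was 0.58 in replicate 1, 0.01 in replicate 2 and -0.58 in replicate 3, and it ran the other way in GC-rich genes. The deviations of 24 h and 48 h libraries in the same genes ran from -0.177 to 0.15.

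The promoters are shown first because mitotic genes are classically driven by short elements near their starts: the cell cycle homology region (CHR, searched as TTTGAA or TTCGAA) and CCAAT boxes. Both were searched on both strands, over 250 bases before to 50 after each start in RefSeq (GRCm38.p6). RefSeq entries were matched for 33 of the 42 members. The 9 sequences below are those of 3 mitotic kinesins called higher from 24 to 48 h and of the 3 Kif3 genes of heterotrimeric kinesin-2, of which Kif3c went the opposite way to Kif3a and Kif3b, with Kif5c and Kif21a as other genes that fell and Kif26b as one that rose. Each runs 5′ to 3′ over the 110 bases before the start, with CHR and CCAAT letters, or their reverse complements, in capitals.
Kif11 (chr19:37376272-37376381, plus strand): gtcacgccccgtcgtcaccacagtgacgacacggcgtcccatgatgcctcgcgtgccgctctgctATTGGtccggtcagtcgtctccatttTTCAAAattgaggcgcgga
Kif18b (chr11:102925125-102925234, minus strand): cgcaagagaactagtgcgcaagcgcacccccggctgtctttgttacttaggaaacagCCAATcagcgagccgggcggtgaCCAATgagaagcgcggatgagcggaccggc
Kif23 (chr9:61946800-61946909, minus strand): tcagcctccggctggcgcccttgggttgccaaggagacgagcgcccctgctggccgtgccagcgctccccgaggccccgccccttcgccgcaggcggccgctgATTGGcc
Kif3a (chr11:53567259-53567368, plus strand): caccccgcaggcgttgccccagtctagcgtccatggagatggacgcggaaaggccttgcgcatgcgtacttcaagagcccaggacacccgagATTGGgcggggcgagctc
Kif3b (chr2:153291306-153291415, plus strand): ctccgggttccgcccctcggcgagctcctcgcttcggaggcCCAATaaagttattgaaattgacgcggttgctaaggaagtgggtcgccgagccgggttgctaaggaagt
Kif3c (chr12:3365022-3365131, plus strand): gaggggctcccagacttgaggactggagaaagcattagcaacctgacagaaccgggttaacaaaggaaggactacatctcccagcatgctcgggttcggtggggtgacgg
Kif5c (chr2:49619176-49619285, plus strand): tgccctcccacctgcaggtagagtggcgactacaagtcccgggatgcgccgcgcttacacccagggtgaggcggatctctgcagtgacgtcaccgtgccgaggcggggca
Kif21a (chr15:91049952-91050061, minus strand): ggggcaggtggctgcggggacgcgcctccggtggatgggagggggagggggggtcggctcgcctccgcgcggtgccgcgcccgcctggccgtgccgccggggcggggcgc
Kif26b (chr1:178529015-178529124, plus strand): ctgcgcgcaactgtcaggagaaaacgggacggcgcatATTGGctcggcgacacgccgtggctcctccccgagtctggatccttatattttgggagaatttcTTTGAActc

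CHR letters stood in 11 of 13 mitotic promoters (84.6%) and in 1 of 12 transport promoters (8.33%), against 19.2% of the 32851 RefSeq promoters of the same length. CCAAT stood in 69.2% of mitotic, 33.3% of transport and 37.4% of all promoters. Both together stood in 61.5% of the mitotic promoters, in 0 of the 12 transport promoters and in 7.52% of all. The mitotic promoters without CHR letters were those of Kif2b and Kif18a, and the transport promoter with them was the second start of Kif1a. The windows of Kif2c, Kif4, Kif14 and the second start of Kif1a, all with CHR letters, lie wholly inside the GENCODE gene. Whether those windows act as promoters was not tested. In Kif11 a CCAAT box at -45 was followed by CHR letters at -19, and in Kif18b a pair of CCAAT boxes at -53 and -30 by CHR letters at 4. Kif3c, Kif5c, Kif13a and Kif21a, which fell, held neither element in the window. Nor did Kif7, Kif9, Kif17 and Kif26a, each called higher at 24 h versus 0 h. Kif1c, Kif2a, Kif12, Kif16b and Kif18a held neither as well. A match is a description of letters, and no match says only that these letters are not there.

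**Figure D1:**
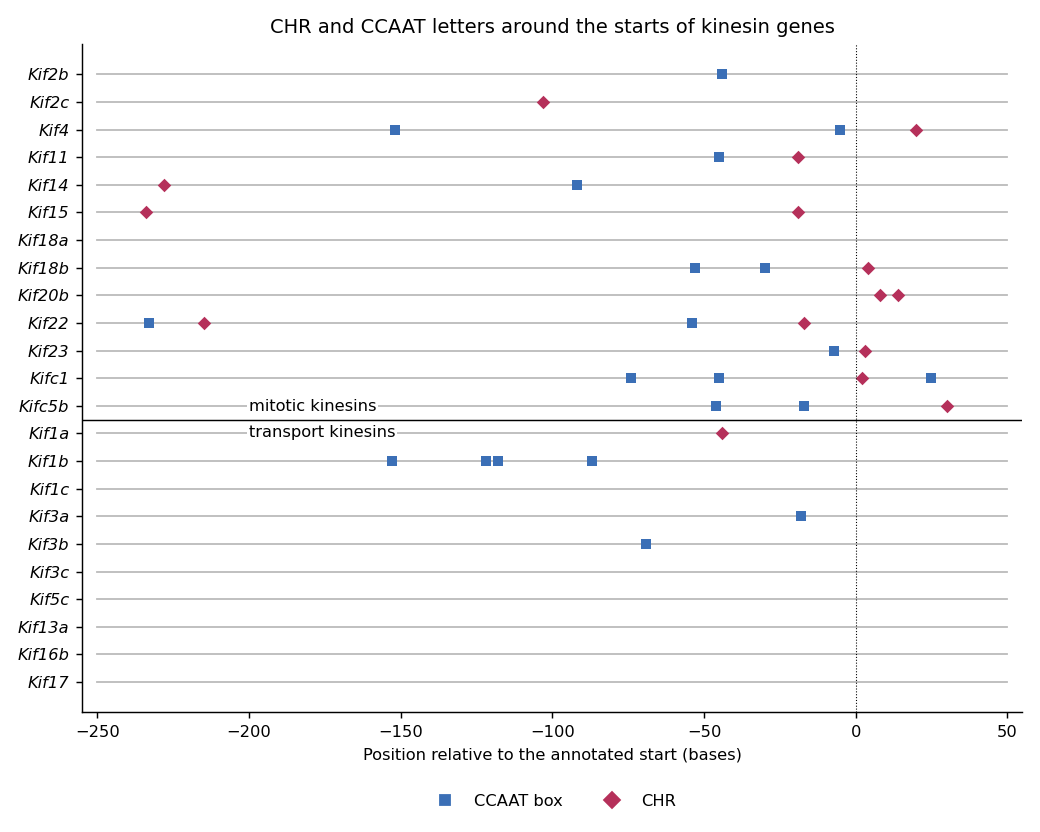
Positions of CHR (diamonds) and CCAAT letters (squares) from 250 bases before to 50 bases after the annotated start, for the mitotic and transport kinesins with a RefSeq promoter. CHR letters lie on 11 of the 13 mitotic lines and on 1 transport line, that of Kif1a.

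Per kilobase of exon, the mitotic kinesins with the highest mean level over the 9 libraries were Kif2c (36.7 CPM per kb), which depolymerizes microtubules at kinetochores, and Kif20a (33.1 CPM per kb), which acts in cytokinesis. They were followed by Kifc1, the minus-end motor that focuses spindle poles (24.2 CPM per kb), Kif18b, a microtubule depolymerase (21.8 CPM per kb), and Kif22, which binds chromosome arms (21.6 CPM per kb). Kif2b, a relative of Kif2c, was the lowest, with 0.371, 0.277 and 0.102 CPM per kb at 0, 24 and 48 h. Among transport kinesins Kif1c led with 37 CPM per kb, then Kif3a with 24.3 CPM per kb and Kif3b with 10.3 CPM per kb, and Kif1a, a carrier of synaptic vesicle precursors, was the lowest with 0.462 CPM per kb. Kif12, at up to 0.0512 CPM, and Kif28, at up to 0.461 CPM, were too low to be tested.

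**Figure D2:**
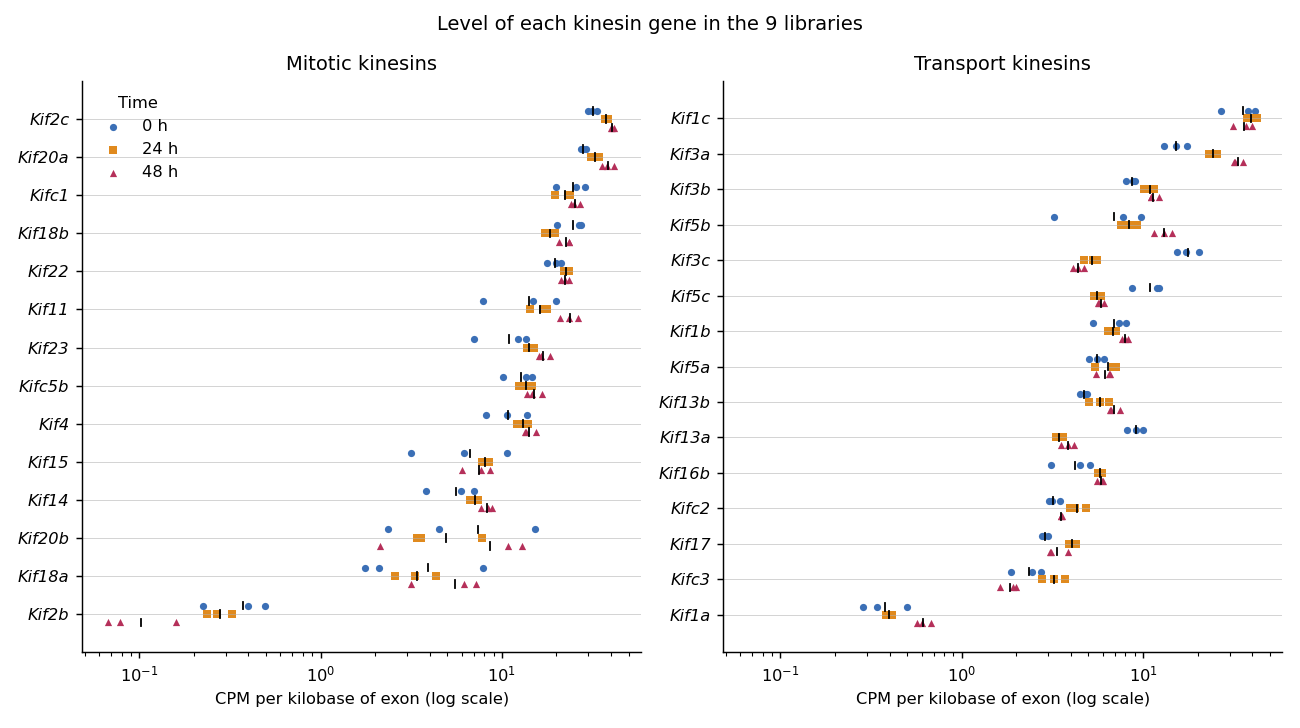
CPM per kilobase of exon (log axis) of the 14 mitotic and 15 transport kinesins in each of 9 libraries, ordered by mean level, with circles for 0 h, squares for 24 h, triangles for 48 h and a bar at each group mean. Kif3c, Kif5c and Kif13a lie to the right at 0 h and to the left later, Kif3a moves the other way, and the 0 h points of Kif20b, Kif18a, Kif15 and Kif5b are spread widest.

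The main edgeR fits used all 6 libraries of a comparison, TMM scaling, the filter on low counts and no offsets for GC content or length. In them no mitotic kinesin was called from 0 to 24 h, and those called in the other comparisons were higher. From 0 to 24 h edgeR called 0 of the 14 tested, where 25.5% of all 17592 genes tested were called at an adjusted p of up to 0.05 (11.4% higher and 14.2% lower). From 24 to 48 h it called 4 of 14, all higher: Kif11, Kif18b, Kif20a and Kif23, against 21.3% of all genes called and 8.61% called higher and 12.7% lower. Over the whole 48 h it called 2 of the 13 tested, Kif2c and Kif20a, both higher, against 31.6% called, 13.0% higher and 18.5% lower. Kif2b was not tested there, since the filter on low counts left it out. DESeq2, a fit with no filter and the fit of all 9 libraries did test it, and each called it lower. The comparisons share libraries, so that these counts are not independent. Between the 0 h libraries, the median coefficient of variation (SD over mean) was 0.257 for mitotic kinesins with a mean of at least 1 CPM. It was 0.145 for such transport kinesins and 0.183 for all such genes. The part of this spread in the calls against 0 h was not tested.

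The median log2 fold change of the mitotic list was 0.20 at 24 h versus 0 h, 0.37 at 48 h versus 0 h and 0.22 at 48 h versus 24 h, and that of all genes tested was 0.01, 0.02 and -0.00. At an unadjusted edgeR p under 0.05 there were 2, 4 and 8 mitotic kinesins. The share of all genes under that p was not taken, so these counts cannot be set against it. DESeq2 called 0, 4 (3 higher and 1 lower) and 5 mitotic kinesins. In all it called 4715, 5963 and 3617 of 31869, 31987 and 32531 genes. The edgeR count of calls at 24 h versus 0 h was 3 without 0 h replicate 1 and 2 without 0 h replicate 3. With offsets for GC content and length it was 5 (Kif2c, Kif14, Kif20a and Kif22 higher, Kif18b lower). The calls over all genes went from 4494 to 5316, 6023 and 6378 in these 3 fits. The count at 48 h versus 0 h was 7 without 0 h replicate 1, 5 without 0 h replicate 3, 8 with the offsets, and 0 without 0 h replicate 2, 48 h replicate 2 or 48 h replicate 3. Over all genes the calls went from 5602 to 7116, 6463 and 7643, and to 4011, 3815 and 3624, in that order. That at 48 h versus 24 h fell to 1 without 24 h replicate 1, 24 h replicate 3 or 48 h replicate 3, to 2 without 48 h replicate 1 and to 0 when all 9 libraries shared 1 estimate of spread. All genes called fell as well, from 3732 to 2044, 2750, 2255, 1857 and 1043 in that order.

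Kif20a stood at 127, 121 and 118 CPM at 0 h, 141, 149 and 135 CPM at 24 h, and 156, 166 and 179 CPM at 48 h. No library of a later time lay below one of an earlier time. Its log2 fold change, given here and below ± its standard error, was 0.46 ± 0.10 (edgeR adjusted p = 0.0135) at 48 h versus 0 h and 0.24 ± 0.07 (edgeR adjusted p = 0.0427) at 48 h versus 24 h. Exons of Kif20a share 29.3% of their bases with Cdc23 on the other strand, and the sources used here do not say whether counting used strand. Kif23, which with Racgap1 forms the centralspindlin complex of the spindle midzone, stood at 108, 97.5 and 55.8 CPM at 0 h, 108, 118 and 109.9 CPM at 24 h, and 129.7, 126 and 145 CPM at 48 h. The 48 h libraries lay above all others, with 0 h replicate 3 far below the rest. The log2 fold change of Kif23 was 0.26 ± 0.08 (edgeR adjusted p = 0.044) at 48 h versus 24 h and 0.62 ± 0.24 (edgeR adjusted p = 0.0921) at 48 h versus 0 h. The second passed the threshold without 0 h replicate 1 or 0 h replicate 3, and also by DESeq2, with all 9 libraries in 1 fit and with the offsets. The first of these calls was lost without any single library but 48 h replicate 2, and with the offsets.

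Kif2c stood at 131, 136 and 147 CPM at 0 h, 164, 161 and 168 CPM at 24 h, and 177, 182 and 175 CPM at 48 h, and its 3 groups did not overlap. For Kif2c the log2 fold change was 0.37 ± 0.09 (edgeR adjusted p = 0.0198) at 48 h versus 0 h, and 0.25 ± 0.09 (edgeR adjusted p = 0.0894) and 0.12 ± 0.06 (edgeR adjusted p = 0.152) in the steps on either side of 24 h, the first of which passed without 0 h replicate 3. Kif11, the tetrameric motor that separates spindle poles, stood at 148, 111 and 59.1 CPM at 0 h, 107, 132 and 126 CPM at 24 h, and 175, 157 and 197 CPM at 48 h. All 48 h libraries lay above all 24 h libraries, while the 0 h libraries spread over both. Kif11 differed from 24 h to 48 h by 0.54 ± 0.11 (edgeR adjusted p = 0.00996), and this call was kept in all 6 fits that left out 1 library. Against 0 h its value was 0.73 ± 0.31 (edgeR adjusted p = 0.12), and it passed the threshold without 0 h replicate 1 or with the offsets.

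Kif18b stood at 72.1, 94.8 and 97.3 CPM at 0 h, 64.8, 70.1 and 62.1 CPM at 24 h, and 74, 83.7 and 83.5 CPM at 48 h. The 24 h libraries were the lowest of the 9. Its log2 fold change of -0.42 ± 0.14 (edgeR adjusted p = 0.0582) at 24 h versus 0 h was not called, but was without 0 h replicate 1. That of 0.30 ± 0.08 (edgeR adjusted p = 0.024) at 48 h versus 24 h was called, though not without 24 h replicate 1, 24 h replicate 3 or 48 h replicate 3. Kif20a, too, lost its call at 48 h versus 24 h without those libraries or 48 h replicate 1, and at 48 h versus 0 h without 0 h replicate 2, 48 h replicate 2 or 48 h replicate 3. Kif2c lost its call at 48 h versus 0 h without 0 h replicate 2 or any 48 h library.

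Kifc1 stood at 68.4, 87.3 and 98.4 CPM at 0 h, 81.2, 67.2 and 78.9 CPM at 24 h, and 85.8, 92.5 and 82.7 CPM at 48 h, and Kif22 at 87.5, 97 and 105 CPM at 0 h, 115, 110.2 and 109 CPM at 24 h, and 109, 115 and 105 CPM at 48 h. Neither was called in the main fit of any of the 3 comparisons. With the offsets Kifc1 was called higher at 48 h versus each earlier time, and Kif22 at each later time versus 0 h. The log2 fold change from 0 to 48 h was 0.05 ± 0.14 (edgeR adjusted p = 0.839) for Kifc1 and 0.19 ± 0.10 (edgeR adjusted p = 0.204) for Kif22. Kif22 was called higher at 24 h versus 0 h without 0 h replicate 3. Windows of Kifc1 matched its near-copy Kifc5b over 70.7% of the transcript at 97% identity, and reads may have been split between them or lost. Kifc5b, at 37.4 to 61.9 CPM, was not called in the main fits either, but was called higher at 48 h versus each earlier time with the offsets.

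The other mitotic kinesins were not called in the main fit of any comparison. Kif4, a chromokinesin, ran from 45 to 84.9 CPM, Kif14, a cytokinesis kinesin, from 39.5 to 92.0 CPM, and Kif15, a partner of Kif11 in spindle assembly, from 34.9 to 117 CPM. Kif14 had a log2 fold change of 0.58 ± 0.22 (edgeR adjusted p = 0.0909) at 48 h versus 0 h, which passed the threshold without 0 h replicate 1 or 0 h replicate 3. That change also passed with all 9 libraries in 1 fit and with the offsets. At 48 h versus 24 h Kif14 was called higher by DESeq2, with DESeq2 size factors and with at least 10 counts in every library. Kif4 was called higher at 24 h and at 48 h versus 0 h without 0 h replicate 1. Kif2b, at up to 1.11 CPM at 0 h and up to 0.359 CPM at 48 h, had a log2 fold change of -1.43 ± 0.46 (edgeR adjusted p = 0.0547) at 48 h versus 24 h, which was not called.

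By another count, 4 mitotic kinesins had all 24 h libraries above all 0 h libraries and 1 had them below, 5 and 0 of those tested at 48 h versus 0 h, and 7 and 1 at 48 h versus 24 h. Kif2b, not tested at 48 h versus 0 h, had all its 48 h libraries below all its 0 h libraries. Of all genes tested 21.5% and 21.6%, 22.5% and 25.1%, and 17.2% and 21.3% did so. For transport kinesins the counts were 7 and 3, 8 and 3, and 5 and 3. These shares were not tested.

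Kif18a, which dampens chromosome movement, and Kif20b, a cytokinesis kinesin, varied more between the 0 h libraries than between the means of the 3 times. Kif20b stood at 106, 16.4 and 31.2 CPM at 0 h, 23.7, 24.8 and 54.4 CPM at 24 h, and 75.4, 14.7 and 89.9 CPM at 48 h. It was 6.47-fold higher in the highest than in the lowest library at 0 h and 6.1-fold at 48 h. Kif18a stood at 77.1, 17.3 and 20.7 CPM at 0 h, 25.4, 32.5 and 42.5 CPM at 24 h, and 60.7, 31.2 and 71.1 CPM at 48 h, a 4.45-fold range at 0 h. Without 0 h replicate 1 the log2 fold change of Kif18a at 24 h versus 0 h went from -0.21 to 0.83 and passed the threshold, as did its higher level at 48 h versus 0 h. Without 48 h replicate 2, both Kif18a and Kif20b were called higher at 48 h versus 24 h. The spindle genes Cenpe and Cenpf followed the library order of Kif20b at 0 h and at 48 h. Cenpe, a kinetochore motor of the kinesin superfamily whose symbol falls outside the rule, stood at 121, 13.6 and 39.3 CPM at 0 h, 32.5, 28.9 and 78.3 CPM at 24 h, and 118, 25.3 and 135 CPM at 48 h. It was high in 0 h replicate 1 and low in 0 h replicate 2 and 48 h replicate 2, as Kif20b was.

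Across 39 kinesins the coefficient of variation of the 0 h libraries went with GC content, with Spearman's rho of -0.605. The same rho was 0.0322 at 24 h and 0.0798 at 48 h, and over 15640 genes at 0 h it was -0.174. These are descriptions across genes that share the same libraries. Kif20b, Kif18a, Kif15, Kif5b and Kif11 had the widest ranges at 0 h and a GC content of 38.2% to 42.7%. Kif2a, at 38.6%, spread only 1.61-fold.

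**Figure D3:**
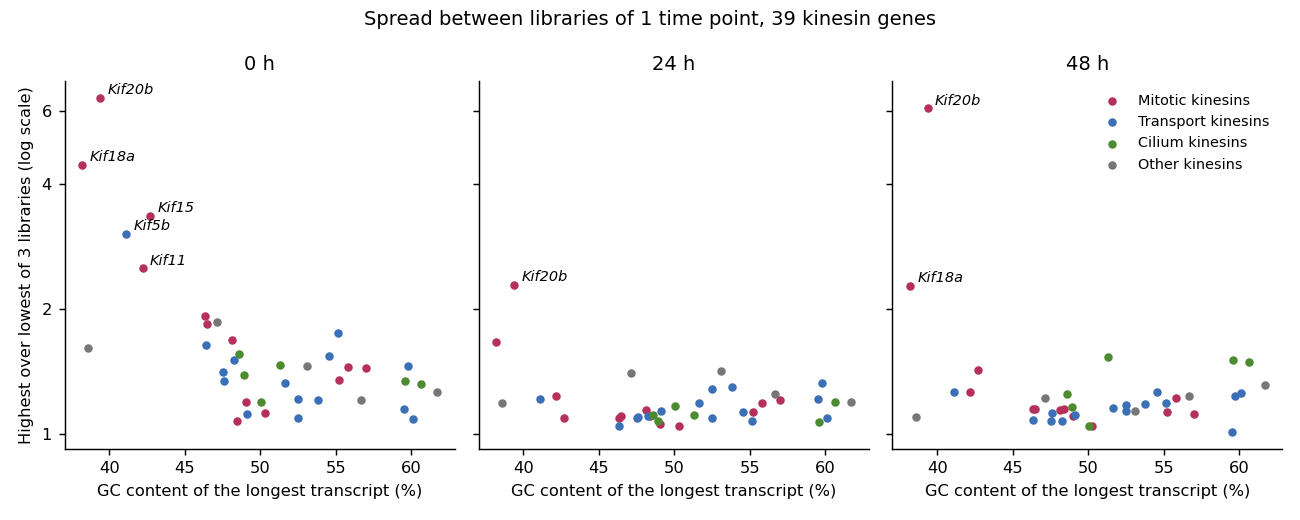
Highest over lowest of the 3 libraries of each time point (log axis) against the GC content of the longest transcript, for 39 kinesins coloured by group. At 0 h the kinesins under 43% GC reach 6.47-fold (Kif20b), at 24 h the highest is Kif20b at 2.29-fold, and at 48 h Kif20b reaches 6.1-fold and Kif18a 2.28-fold.

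Transport kinesins changed in both directions. From 0 to 24 h edgeR called 5 of 15, with Kif3a and Kif17 higher and Kif3c, Kif5c and Kif13a lower. From 0 to 48 h it called 6 of 15, with Kif3a, Kif3b and Kif13b higher and the same 3 genes lower. From 24 to 48 h it called 5 of 15, with Kif1a, Kif1b, Kif3a and Kif5b higher and Kifc3 lower. Scaled by library size alone, 4 were higher and 3 lower at 24 h versus 0 h. That scaling moved the median gene up by 0.113 (log2) at 24 h and 0.11 at 48 h against 0 h, and the higher share of all calls from 44.6% to 57.1% and from 41.2% to 52.8%. The TMM-scaled counts are 33.3%, 40% and 33.3% of those tested, beside 25.5%, 31.6% and 21.3% of all genes. No test of the list was made. The list's median log2 fold change was 0.27, 0.21 and 0.08.

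With offsets for GC content and length, 10 transport kinesins were called at 24 h versus 0 h and 10 at 48 h versus 0 h. All genes called then went from 4494 to 6378 and from 5602 to 7643. At 48 h versus 24 h the count fell to 3 without 24 h replicate 2 or 48 h replicate 1 and to 2 with all 9 libraries in 1 fit. Over all genes the calls fell there from 3732 to 2790, 1857 and 1043.

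**Figure D4:**
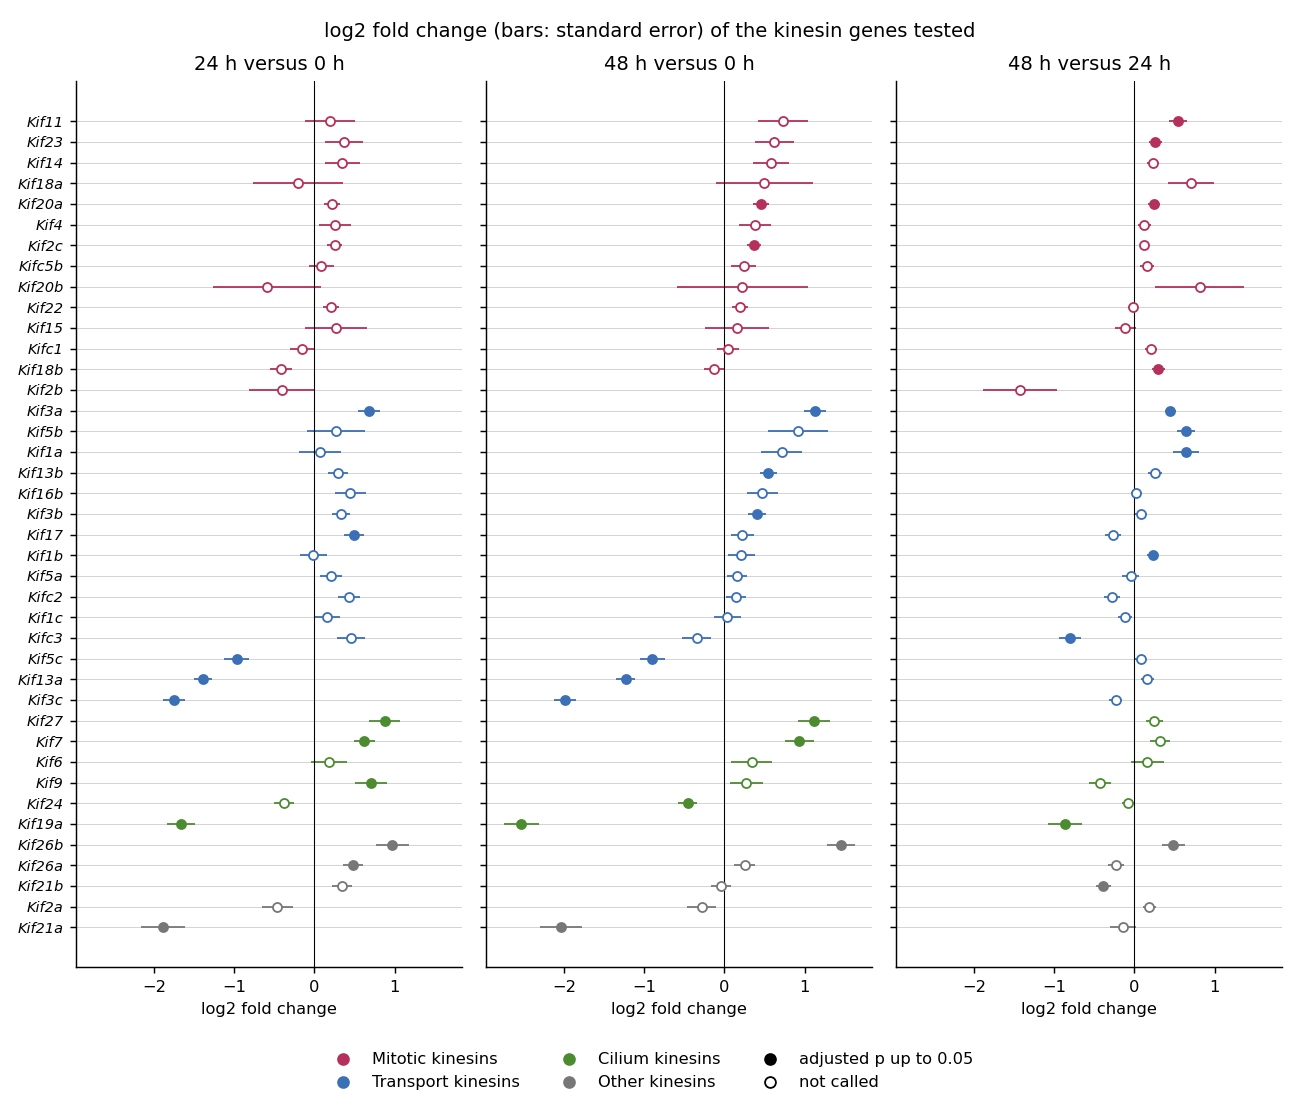
log2 fold change with its standard error (bars) of the 40 kinesins tested in at least 1 comparison, in 3 panels, with filled points for an adjusted p of up to 0.05. Most mitotic kinesins lie close to or right of 0, Kif2b and Kif20b apart, while among transport, cilium and other kinesins Kif3c, Kif13a, Kif5c, Kif19a and Kif21a lie far to the left in both comparisons with 0 h.

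The kinesin-2 genes parted from each other. Kif3a pairs with either Kif3b or Kif3c, and the Kif3a and Kif3b pair with Kifap3 builds and maintains cilia. Kif3a stood at 54.3, 62.7 and 46.8 CPM at 0 h, 88.4, 83.2 and 91.3 CPM at 24 h, and 116, 128 and 114 CPM at 48 h. The 3 groups did not overlap and each step was upward. The log2 fold change of Kif3a was 0.68 ± 0.13 (edgeR adjusted p = 0.00943) at 24 h versus 0 h, 1.13 ± 0.14 (edgeR adjusted p = 0.000853) at 48 h versus 0 h and 0.45 ± 0.07 (edgeR adjusted p = 0.00206) at 48 h versus 24 h. All 3 calls were kept in each of the 8 alternative settings and without each library.

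Kif3c, the partner known best from neurons, stood at 113, 128 and 150.0 CPM at 0 h, 41.5, 34.9 and 39.3 CPM at 24 h, and 32.2, 35.2 and 30.4 CPM at 48 h. Every 0 h library lay far above every later one. Its log2 fold change was -1.75 ± 0.13 (edgeR adjusted p = 0.000135) at 24 h versus 0 h and -1.99 ± 0.13 (edgeR adjusted p = 5.98e-05) at 48 h versus 0 h, calls kept in every alternative, and -0.23 ± 0.08 (edgeR adjusted p = 0.0717) at 48 h versus 24 h. The antisense gene 1110002L01Rik overlaps 35.3% of the exons of Kif3c, and held 1009 counts over the 9 libraries against 11726 for Kif3c. Since the strand setting is not known, reads in the overlap may have been lost from both. The effect of the overlap was not tested. Kif3b stood at 49.6, 51 and 45.6 CPM at 0 h, 62.4, 64.5 and 56.9 CPM at 24 h, and 62, 68.9 and 62.2 CPM at 48 h, with 0 h below both later times. It changed by 0.40 ± 0.11 (edgeR adjusted p = 0.0272) at 48 h versus 0 h, a call lost without 0 h replicate 2 or any 48 h library, and by 0.33 ± 0.11 (edgeR adjusted p = 0.0724) at 24 h versus 0 h. Kifap3, the third subunit, rose from 26.7 to 37.2 CPM at 0 h to 48.3 to 51.5 CPM at 48 h (log2 fold change 0.70 ± 0.16, edgeR adjusted p = 0.0139). Kif17, the homodimeric kinesin-2, ran from 12.6 to 19.5 CPM and rose at 24 h by 0.49 ± 0.12 (edgeR adjusted p = 0.0222), a call lost without 0 h replicate 2 or any 24 h library.

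The kinesin-1 heavy chains, which carry mitochondria, vesicles and RNA, also parted. Kif5c, the neuronal form, stood at 84.9, 87.2 and 61.8 CPM at 0 h, 41.8, 38.2 and 39.2 CPM at 24 h, and 40.9, 43.7 and 40.5 CPM at 48 h, with all 0 h libraries above all later ones. Its log2 fold change was -0.97 ± 0.16 (edgeR adjusted p = 0.00408) at 24 h versus 0 h and -0.90 ± 0.16 (edgeR adjusted p = 0.00482) at 48 h versus 0 h, both kept in every alternative, and 0.08 ± 0.07 (edgeR adjusted p = 0.454) between the later times. Kif5b, the ubiquitous form, stood at 77.9, 61.8 and 25.7 CPM at 0 h, 60.4, 73.6 and 66.6 CPM at 24 h, and 105, 91.7 and 116 CPM at 48 h. The 48 h libraries were the 3 highest, and 0 h replicate 3 was the lowest. Kif5b rose by 0.65 ± 0.11 (edgeR adjusted p = 0.00432) from 24 to 48 h, and its 0.92 ± 0.37 (edgeR adjusted p = 0.103) at 48 h versus 0 h passed the threshold without 0 h replicate 1 or 0 h replicate 3. The latter also passed by DESeq2, with no filter, with all 9 libraries in 1 fit and with the offsets. Kif5a ran from 35.3 to 49.5 CPM and was not called.

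Kif13a and Kif13b are kinesin-3 motors of endosomal and membrane cargo. Kif13a stood at 66.3, 80.7 and 73.9 CPM at 0 h, 29.5, 26.9 and 27.6 CPM at 24 h, and 31.3, 33.5 and 28.6 CPM at 48 h. The 0 h libraries lay above every later one. Against 0 h, Kif13a had log2 fold changes of -1.39 ± 0.12 (edgeR adjusted p = 0.000197) at 24 h and -1.24 ± 0.12 (edgeR adjusted p = 0.000327) at 48 h, kept in every alternative. Kif13b moved the other way, from 58.1 to 63.5 CPM at 0 h to 85.1 to 96.6 CPM at 48 h (log2 fold change 0.55 ± 0.11, edgeR adjusted p = 0.00745).

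Kif1c, a carrier of dense core vesicles and RNA, stood at 197, 276 and 303 CPM at 0 h, 309.6, 274 and 278 CPM at 24 h, and 269.9, 290.1 and 229 CPM at 48 h. Its groups overlapped, and its value at 48 h versus 0 h was 0.03 ± 0.17 (edgeR adjusted p = 0.905). Kif1b, a carrier of mitochondria and vesicle precursors, stood at 141, 130.4 and 93.4 CPM at 0 h, 124, 125 and 113 CPM at 24 h, and 139, 136 and 146 CPM at 48 h. Its change of 0.23 ± 0.07 (edgeR adjusted p = 0.0438) at 48 h versus 24 h was called, but lost in 5 of 8 settings and without every library but 48 h replicate 2. Kif1a, at 2.67 to 6.3 CPM, rose from 24 to 48 h by 0.65 ± 0.16 (edgeR adjusted p = 0.0203), a call lost without 24 h replicate 1, 24 h replicate 2 or 48 h replicate 1. It was also called higher at 48 h versus 0 h without 0 h replicate 1. Kifc3, a minus-end motor of the Golgi and cell junctions, went from 14.7 to 19.6 CPM at 24 h to 8.56 to 10.6 CPM at 48 h (log2 fold change -0.80 ± 0.14, edgeR adjusted p = 0.00411), and was called higher at 24 h versus 0 h without 0 h replicate 3. Kif16b, an early endosome motor, and Kifc2 were not called in the main fits. With the offsets both were called higher at 24 h and at 48 h versus 0 h. Kif16b was called higher at 24 h and at 48 h versus 0 h without 0 h replicate 1, and Kifc2 at 24 h versus 0 h without 0 h replicate 3.

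Within each library, the level per kilobase of 1 gene was divided by that of its numbered relative, a measure free of the scaling between libraries. The ratio is not free of the deviation by GC content between the 0 h libraries. For Kif5b (41.1% GC) over Kif5c (47.5% GC) the log2 ratio was -0.28, -0.66 and -1.43 in 0 h replicates 1, 2 and 3. The part of GC content in the ratios was not tested. The 15 pairs were compared over the 3 times with an exact permutation test over the 280 partitions of the libraries, a test chosen after the values were seen. Of the 15 pairs 9 had a Benjamini-Hochberg adjusted p of up to 0.05, and pairs that share a gene are not independent. The mean log2 ratio of Kif3b to Kif3c was -1.02 ± 0.274 at 0 h, 1.06 ± 0.189 at 24 h and 1.38 ± 0.0454 at 48 h (SD, n = 3; exact permutation p = 0.00357, the smallest this design allows, adjusted p = 0.0107). Per kilobase, Kif3c was the more abundant partner at 0 h and Kif3b at both later times. The ratio of Kif3a to Kif3b went from 0.81 ± 0.131 to 1.54 ± 0.0173 with the same exact p. Kif5b to Kif5c turned in the same manner, from -0.79 ± 0.583 through 0.59 ± 0.207 to 1.15 ± 0.226, again at the smallest p.

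Kif13a to Kif13b turned the opposite way, from 0.95 ± 0.173 at 0 h to -0.73 ± 0.147 and -0.84 ± 0.0532 (exact permutation p = 0.0143, adjusted p = 0.0268). Kif21a to Kif21b went from -0.59 ± 0.584 to -2.79 ± 0.405 and -2.54 ± 0.141 at the same p. Kif26a to Kif26b shrank from 5.59 ± 0.106 through 5.09 ± 0.262 to 4.36 ± 0.211 at the smallest p. In each of these 6 pairs the 0 h and 48 h libraries did not overlap. The mitotic pairs Kif18a to Kif18b (exact permutation p = 0.554) and Kif20a to Kif20b (exact permutation p = 0.907) showed no difference beyond the spread of Kif18a and Kif20b between libraries, with SDs of up to 1.43 on the log2 scale.

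**Figure D5:**
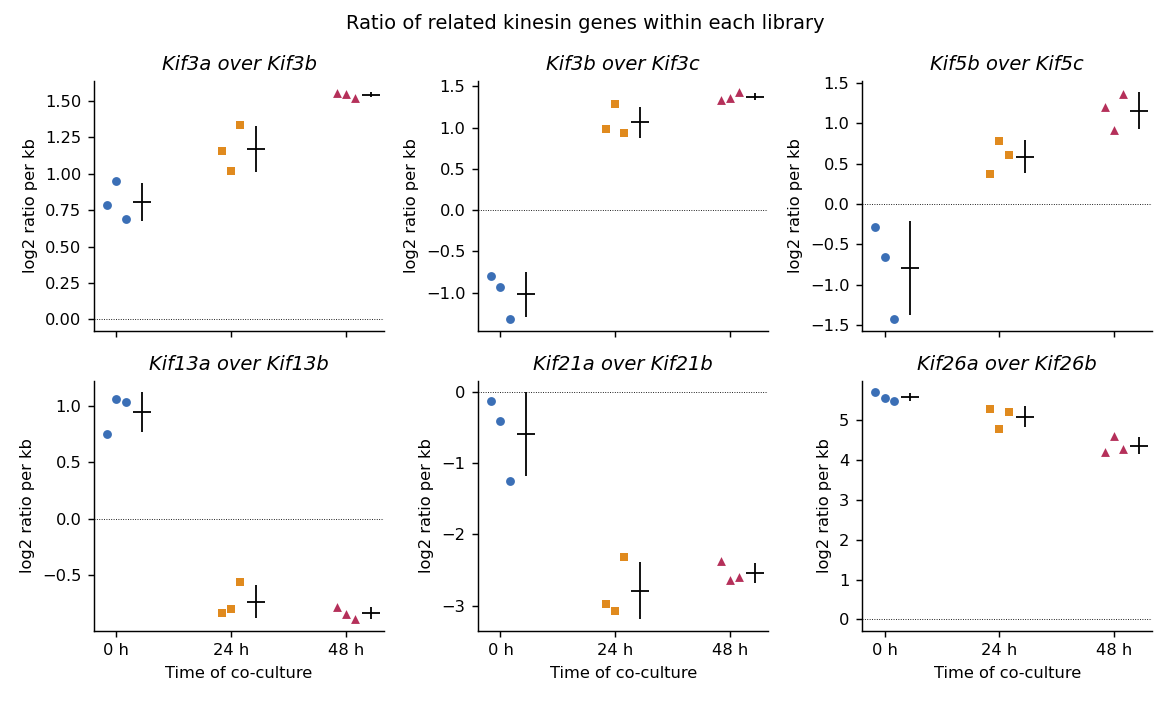
log2 ratio of the level per kilobase of 6 pairs of related kinesins in each library, by time of co-culture, with the mean and SD (bars, n = 3) to the right of the points. Kif3b over Kif3c and Kif5b over Kif5c cross from below 0 to above it between 0 and 24 h, and Kif13a over Kif13b crosses the other way.

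The 6 kinesins of the cilium split. Kif7, which controls Hedgehog signalling at the cilium tip, rose from 17.5 to 23.5 CPM at 0 h to 32.0 to 48.1 CPM at 48 h (log2 fold change 0.93 ± 0.18, edgeR adjusted p = 0.00697), and was higher at 24 h too (0.62 ± 0.13, edgeR adjusted p = 0.012), a call lost without 0 h replicate 2, 24 h replicate 1 or 24 h replicate 3. Kif27, its close relative, stood at 16.1, 15 and 10.3 CPM at 0 h, 25.7, 26.6 and 23.9 CPM at 24 h, and 30.3, 26.6 and 33.2 CPM at 48 h. Both later groups lay above 0 h, with log2 fold changes of 0.88 ± 0.19 (edgeR adjusted p = 0.0133) at 24 h, lost without 24 h replicate 1 or 2, and 1.12 ± 0.20 (edgeR adjusted p = 0.00495) at 48 h, kept in every alternative. Kif9, a motor of motile cilia and sperm tails, was called at 24 h versus 0 h and not at 48 h versus 0 h. It stood at 6.79 to 7.31 CPM against 3.73 to 5.16 CPM at 0 h (log2 fold change 0.71 ± 0.20, edgeR adjusted p = 0.0378), a call lost without 0 h replicate 2 or any 24 h library.

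Kif19a, which sets the length of motile cilia by taking microtubules apart, fell furthest of all kinesins over 48 h. It stood at 10.5, 11 and 13.8 CPM at 0 h, 4.02, 3.36 and 3.7 CPM at 24 h, and 2.05, 2.38 and 1.6 CPM at 48 h, with each time below the one before. Kif19a had a log2 fold change of -1.67 ± 0.18 (edgeR adjusted p = 0.000607) at 24 h and -2.54 ± 0.22 (edgeR adjusted p = 0.000186) at 48 h versus 0 h, kept in every alternative, and -0.87 ± 0.21 (edgeR adjusted p = 0.0189) at 48 h versus 24 h, a call lost without replicate 1 or 3 of either time. Kif24, which holds back cilium assembly at the mother centriole, fell from 46.5 to 55.4 CPM to 36.6 to 38.3 CPM at 48 h (log2 fold change -0.46 ± 0.12, edgeR adjusted p = 0.0224), a call lost without 0 h replicate 2 or any 48 h library. Its level at 24 h versus 0 h was called lower without 0 h replicate 3. Kif6 was not called. In the 3 comparisons 4 (66.7%), 4 (66.7%) and 1 (16.7%) of the 6 were called, beside 25.5%, 31.6% and 21.3% of all genes.

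Of the 5 other kinesins tested, Kif21a, a motor that also restrains microtubule growth, fell furthest. Kif21a stood at 37.3, 37 and 20 CPM at 0 h, 8.04, 7.2 and 10.1 CPM at 24 h, and 8.15, 8.03 and 6.65 CPM at 48 h. All 0 h libraries lay above all later ones, with 0 h replicate 3 the lowest of the 0 h libraries. The log2 fold change was -1.90 ± 0.27 (edgeR adjusted p = 0.00237) at 24 h and -2.04 ± 0.27 (edgeR adjusted p = 0.00122) at 48 h versus 0 h, kept in every alternative. Kif21b, at 94.9 to 119 CPM at 24 h and 75.9 to 93.7 CPM at 48 h, was lower at 48 h (-0.39 ± 0.10, edgeR adjusted p = 0.0215), a call lost without 24 h replicate 1, 24 h replicate 2, 48 h replicate 1 or 48 h replicate 3.

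Kif26b, an atypical kinesin tied to cell adhesion and kidney development, stood at 4.61, 5.78 and 6.75 CPM at 0 h, 10.8, 13.4 and 9.46 CPM at 24 h, and 16.7, 15.5 and 14.7 CPM at 48 h. The 3 times did not overlap, with 0.97 ± 0.21 (edgeR adjusted p = 0.0126) at 24 h, 1.46 ± 0.17 (edgeR adjusted p = 0.000817) at 48 h versus 0 h and 0.49 ± 0.14 (edgeR adjusted p = 0.0365) at 48 h versus 24 h. The first of these was lost without 0 h replicate 2 or 24 h replicate 2, and the last without 24 h replicate 1, 24 h replicate 3, 48 h replicate 1 or 48 h replicate 3. It moved in the same direction as the fibroblast and smooth muscle markers above. So did the group means of other kinesins, Kif3a, Kif7, Kif13b and Kif27 among them. The part of the marked cells in any of these was not tested. Kif26a, at 113 to 143 CPM at 0 h, was higher at 24 h, at 165 to 197 CPM (0.48 ± 0.12, edgeR adjusted p = 0.0248), a call lost without 0 h replicate 2 or any 24 h library. Kif2a, a relative of Kif2c known from spindle poles and neurons, ran from 111 to 199 CPM and was not called in the main fits. It was called lower at 24 h and at 48 h versus 0 h without 0 h replicate 3, and with the offsets for GC content and length, and higher at 48 h versus 24 h without 24 h replicate 2.

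Added up, the 14 mitotic kinesins held 1051 ± 164 CPM at 0 h, 1146 ± 28.3 CPM at 24 h and 1348 ± 97.1 CPM at 48 h (SD, n = 3). The 15 transport kinesins held 1001 ± 55.5, 959 ± 43.5 and 1027 ± 38.5 CPM. The ratio of both sums within a library was 1.27, 0.956 and 0.935 at 0 h, 1.11, 1.22 and 1.26 at 24 h, and 1.3, 1.18 and 1.47 at 48 h. The means moved from 1.05 to 1.32, but 0 h replicate 1 lay within the 48 h range, so the groups overlapped. With Kif1c, the highest transport kinesin, left out, the ratio was 1.59, 1.29 and 1.36 at 0 h, 1.6, 1.72 and 1.81 at 24 h, and 1.76, 1.62 and 1.91 at 48 h. No later library then lay below a 0 h library, but only just, with 1.598 in 24 h replicate 1 against 1.592 in 0 h replicate 1. No mitotic kinesin was left out to match. The median log2 fold change of mitotic kinesins minus that of transport kinesins was -0.07 at 24 h versus 0 h, 0.16 at 48 h versus 0 h and 0.14 at 48 h versus 24 h. The middle value was 0.37 without 0 h replicate 1, and 0.03 to 0.24 without any other single library. It was 0.02 with the offsets, and 0.09 by DESeq2, with no filter and with all 9 libraries in 1 fit. Between libraries of the same time, the SD of the difference between the list medians of log2 level was 0.17. In the main fit of 48 h versus 0 h, which leaves out Kif2b, mitotic log2 fold changes ran from -0.12 to 0.73. Those of transport kinesins ran from -1.99 to 1.13.

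The genes that work with these motors were taken from lists of textbook partners. Of 29 spindle partners, 0 were called higher and 1 lower at 24 h versus 0 h (DESeq2 0 and 1), 4 and 1 at 48 h versus 0 h (DESeq2 5 and 1), and 7 and 0 at 48 h versus 24 h (DESeq2 7 and 0). These are 3.45%, 17.2% and 24.1% of the list, beside 25.5%, 31.6% and 21.3% of all genes. Cdk1, the kinase that starts mitosis, had a log2 fold change of -0.84 ± 0.11 (edgeR adjusted p = 0.00129) at 24 h and -0.73 ± 0.10 (edgeR adjusted p = 0.00161) at 48 h versus 0 h. Racgap1, the partner of Kif23, rose by 0.63 ± 0.11 (edgeR adjusted p = 0.00449) at 48 h versus 0 h and by 0.48 ± 0.06 (edgeR adjusted p = 0.0013) at 48 h versus 24 h. Ect2, which Racgap1 activates, was higher at 48 h than at 24 h by 0.45 ± 0.11 (edgeR adjusted p = 0.0189).

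Of 17 DNA replication genes, 0 were called higher and 2 lower at 24 h versus 0 h, 0 and 7 at 48 h versus 0 h, and 0 and 6 at 48 h versus 24 h. The lower calls are 11.8%, 41.2% and 35.3% of the list, beside 14.2%, 18.5% and 12.7% of all genes called lower. DESeq2 gave the same counts in each direction. Ccne1, the S phase cyclin, fell by 1.05 on the log2 scale over 48 h and Rrm2, a ribonucleotide reductase subunit, by 1.04. At 24 h versus 0 h Rrm2 fell by 0.84 and Ccne1 by 0.54 on the log2 scale. At 48 h versus 24 h Ccne1 fell by 0.51 and Slbp, which binds histone mRNA, fell by 0.29 on that scale.

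Of 18 transport partners, the adaptors and light chains of kinesin-1 to kinesin-3, 3 were higher and 2 lower at 24 h versus 0 h, 4 and 3 at 48 h versus 0 h, and 3 and 4 at 48 h versus 24 h. These are 27.8%, 38.9% and 38.9% of the list, against 25.5%, 31.6% and 21.3% of all genes. Jakmip1, a microtubule-binding partner of kinesin-1, fell from 103 to 124 CPM to 34.5 to 43.6 CPM (log2 fold change -1.51 ± 0.13, edgeR adjusted p = 0.000177). Hap1, an adaptor of kinesin light chain, had a log2 fold change of -1.33 ± 0.14 (edgeR adjusted p = 0.000517) at 48 h versus 0 h and -0.88 ± 0.07 (edgeR adjusted p = 0.000175) at 48 h versus 24 h. The light chain Klc3 had -0.58 ± 0.11 (edgeR adjusted p = 0.00626) in the last of these. Fez1, an adaptor of Kif5, stood at 1.04 to 2.27 CPM at 0 h and was higher at 24 h by 1.39 ± 0.32 (edgeR adjusted p = 0.0171).

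Of 16 genes of intraflagellar transport, which kinesin-2 powers, 0 were higher and 1 lower at 24 h versus 0 h, 1 and 0 at 48 h versus 0 h, and 4 and 3 at 48 h versus 24 h. The calls make up 6.25%, 6.25% and 43.8% of the list, against 25.5%, 31.6% and 21.3% of all genes. Dync2li1, a light intermediate chain of the ciliary dynein, was the gene called lower at 24 h (-0.83 ± 0.21, edgeR adjusted p = 0.026), and it rose again by 0.64 ± 0.19 (edgeR adjusted p = 0.0397). Ift20 was the gene called higher at 48 h versus 0 h (0.66 ± 0.11, edgeR adjusted p = 0.00385), and Ift43 the largest fall at 48 h versus 24 h (-0.43 ± 0.12, edgeR adjusted p = 0.0352). Of 18 dynein genes, the motors that run against most kinesins, edgeR called 0 at 24 h versus 0 h (4 at an unadjusted p under 0.05, and 1 by DESeq2), 1 higher and 2 lower at 48 h versus 0 h, with Dync1li2 higher and Dynll1 (-0.49 ± 0.10, edgeR adjusted p = 0.00868) and Dync1li1 (-0.41 ± 0.12, edgeR adjusted p = 0.0367) lower, and 1 lower, Dynll2, at 48 h versus 24 h (-0.37 ± 0.10, edgeR adjusted p = 0.0294). The dynein calls at 48 h versus 0 h and 48 h versus 24 h make up 16.7% and 5.56% of that list, below the 31.6% and 21.3% of all genes. The share of all genes at an unadjusted p under 0.05 was not taken.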

How the data were processed

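RNA-seq was made from 9 libraries, 3 each at 0, 24 and 48 h. The authors deposited raw counts per gene for each library; per the submitters' processing notes the tools were fastp, HISAT2 and featureCounts, and the build GRCm38. Versions, strand setting and the treatment of reads with several matches are not given in the sources used here. Of 46078 identifiers, 45229 had a GENCODE M21 symbol. Each pair of time points was fitted on its 6 libraries with edgeR 4.0.16 in R 4.3.3 (TMM, filterByExpr, quasi-likelihood test, two-sided), with Benjamini-Hochberg adjustment over all genes tested and a threshold of 0.05. DESeq2 1.42.0 was an alternative. The fit was tested on simulated data. In simulated counts for 24 h versus 0 h, over 17287 genes, 94.7% of 4-fold and 39.1% of 2-fold changes were recovered, with 8 false calls. Every simulated gene had the same dispersion, and no deviation by GC content was put in. These rates therefore do not measure recovery for kinesins that spread widely at 0 h. Values in every library were given for the 7 mitotic and 7 transport kinesins with the highest mean level per length, and for kinesins called with an absolute log2 fold change of at least 1 and a mean of at least 1 CPM in a group. In partner lists the 2 largest called changes of each comparison were named. Members and lists were chosen with earlier results of these data known. Alternatives were other scalings and filters, all 9 libraries in 1 fit, a replicate block, offsets for GC content and length, and leaving out each library. Other members of the mitotic and transport lists were tried as well. Shared sequence was found with BLAST 2.17.0 in windows of 75 bases at 97% identity.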

Additional observations from a re-analysis of the deposited data

How the results depend on the processing

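At 24 h versus 0 h, 12 kinesins were called, 0 mitotic and 5 transport. The offsets for GC content and length raised these to 25, 5 and 10, where all genes called went from 4494 to 6378. The mitotic count was 1 scaled by library size alone, 1 with at least 10 counts in every library and 2 with all 9 libraries in 1 fit. These fits called 4802, 4088 and 5751 genes in all. Leaving out 1 library gave 7 to 18 kinesins, 0 to 3 mitotic and 4 to 7 transport, with the lowest total without 0 h replicate 2, 24 h replicate 1 or 24 h replicate 2. All genes called ran from 2607 to 6023 in those fits. At 48 h versus 0 h, 14 were called, 2 mitotic and 6 transport. The offsets gave 26, 8 and 10, where all genes called went from 5602 to 7643. The mitotic count was 4 by DESeq2, 5 with all 9 libraries and 0 with the replicate block, with 5963, 6945 and 4013 genes called in all. Leaving out 1 library gave 10 to 22 kinesins (22 without 0 h replicate 1), 0 to 7 mitotic and 5 to 9 transport, and a median difference between mitotic and transport kinesins of 0.0281 to 0.3704. All genes called ran from 3471 to 7116, with 7116 also without 0 h replicate 1. At 48 h versus 24 h, 12 were called, 4 mitotic and 5 transport. With all 9 libraries in 1 fit these were 3, 0 and 2, where all genes called went from 3732 to 1043, and with the replicate block 6, 1 and 3. Leaving out 1 library gave 5 to 17 kinesins, 1 to 6 mitotic and 3 to 6 transport, with 5 or 6 kinesins without 24 h replicate 1, 24 h replicate 3, 48 h replicate 1 or 48 h replicate 3. All genes called ran from 1857 to 4356 there. The log2 fold change of Kif18a at 24 h versus 0 h was -0.546 to 0.8286 when 1 library was left out, and reversed without 0 h replicate 1. The cause of these shifts was not tested. With Kif2a in place of Kifc5b in the mitotic list, 0, 2 and 4 mitotic kinesins were called in the 3 comparisons. With Kif21a and Kif21b in place of Kifc2 and Kifc3, 6, 7 and 5 transport kinesins were called. The median difference between these lists was -0.007, 0.161 and 0.144. Replicate numbers did not pair the libraries: correlations of same-numbered deviations ran from -0.28 to 0.195. With the replicate block 9, 10 and 6 kinesins were called in the 3 comparisons, and 3007, 4013 and 2497 genes in all. Over single kinesins, 290 of 320, 284 of 312 and 286 of 319 values under other settings kept their direction and side of the threshold. Fits with 1 library left out kept 211 of 240, 207 of 234 and 200 of 240.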

Other observations

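Kif18a and Kif20b shared their swing between libraries with a small set of other genes, picked with limits chosen after the values were seen. Of 10342 genes with a mean of at least 10 CPM, 70 (0.677%) were higher in 0 h replicate 1 than in 0 h replicate 2 by more than 1.5 on the log2 scale, and higher in 48 h replicates 1 and 3 than in 48 h replicate 2 by more than 1. These 2 were the kinesins among them. The set also held the meiotic genes Sycp1, Sycp2 and Tex15 and the mitotic genes Cenpe, Cenpf, Mki67 and Knl1, which were looked up by name. The other genes of the set were not sorted by role. The median transcript of the 70 was 7160 bases long with 34.0% A and 39.3% GC, where that of all these genes was 3496 bases with 25.2% A and 49.8% GC. Why these libraries differ was not tested.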
